A study of Sus scrofa with 18 samples.

Results

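The genes described here are 60 listed genes of the cell cycle and of proliferation, read in the liver of growing pigs. They were listed by gene symbol, and a gene with more than 1 probe set was represented by the one with the highest mean over all arrays. A probe set carrying the symbol as its single named gene was present for 38 of the 60, out of 12307 genes named in this way and 25388 probe sets in all. By role these were 7 of 8 G1 cyclins and their kinases, 1 of 2 inhibitors of cyclin-dependent kinases (CDK), 3 of 3 transcription factors of the cycle, 7 of 15 S phase genes and 20 of 32 genes of G2 and mitosis (G2/M). The other 22 were not analysed here. Among them were MKI67, the common marker of dividing cells, PCNA, the sliding clamp of DNA polymerases, and CCNB1, the main mitotic cyclin, as well as MCM3, MCM5, MCM6 and MCM7 of the replicative helicase, RRM2, TYMS, CDC25A, CCND3, CDKN1B, CCNA2, PLK1, AURKB, BUB1, BUB1B, CENPE, NUSAP1, PRC1, ECT2 and BIRC5.

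A cell that divides passes through G1, copies its DNA in S phase and separates the copies in mitosis. In G1, cyclins switch on CDKs, which release E2F transcription factors and so turn on S phase genes, and a later wave driven by MYBL2 and FOXM1 turns on the G2/M genes. Most hepatocytes of an adult liver rest outside the cycle, whereas the liver of a young animal still grows by cell division. The roles given below are those known from human, rodent or yeast cells.

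The feeding trial held 30 male pigs aged 5 weeks at its start, a cross of Piétrain with German Landrace × German Edelschwein, and 10 of them received each diet. The diet of group CON relied on soybean extraction meal without insect meal, in group IM5 meal of the mealworm Tenebrio molitor at 5% of the diet took the place of 50% of the soybean meal, and in group IM10 insect meal at 10% took the place of 100% of it. The diets also differed in cellulose and in single amino acids and their oils were adjusted, so a difference between groups belongs to the whole diet. After 4 weeks (day 29) the pigs were killed in the fed state, and liver RNA of 6 randomly selected pigs per group was hybridised, giving 18 Affymetrix Porcine Gene 1.0 ST arrays with 1 pig per array. Pigs shared pens, and which pigs shared one was not known here.

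Values were on the log2 scale after robust multi-array averaging (RMA), so that a difference of 1 is a 2-fold difference. Array medians lay between 5.05 and 5.15, and the correlation between any 2 arrays was 0.986 to 0.992. The tissue carried the defining markers of hepatocytes. ALB, the gene of serum albumin, was between 12.81 and 12.95 on all arrays, and its lowest value was above 99.98% of all values in the table. The members were often dim, since 17 of 38 (44.74%) had a mean below 5, beside 41.54% of all named genes, and 12 of these 17 were G2/M genes. The number of arrays limits the precision of each value.

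Few transcripts differed between diets, among the members as among all probe sets. A probe set was taken to differ when its fold change exceeded 1.2 and its unadjusted p in limma, a linear model with a spread estimate shared across probe sets, was below 0.05. Between IM10 and CON, 2 of the 38 members met these criteria, as did 2.07% of all probe sets. With so few calls, nothing particular to the members is read from this count or from those of the other comparisons. MASTL was higher and CDKN1A lower in IM10. Neither passed a Benjamini-Hochberg adjustment over all 25388 probe sets (adjusted p in limma 0.665 and 0.809).

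MASTL encodes the Greatwall kinase, which holds the phosphatase PP2A in check while a cell is in mitosis. In the CON pigs its values were 3.99, 3.17, 3.23, 2.98, 3.16 and 2.63, in the IM5 pigs 3.93, 3.12, 3.53, 4.06, 3.29 and 3.44, and in the IM10 pigs 3.92, 3.56, 3.62, 3.59, 3.81 and 3.93. Apart from 1 CON pig at 3.99, all CON pigs lay below the lowest IM10 pig, so the ranges of both groups overlapped through that pig alone. The means were 3.19 ± 0.45 (SD, n = 6) in CON, 3.56 ± 0.37 in IM5 and 3.74 ± 0.17 in IM10. The difference between IM10 and CON was 0.545 on the log2 scale, a 1.46-fold higher value, with a 95% interval from 0.19 to 0.90 (limma p = 0.00529, two-sided exact permutation p = 0.026). The signal of this probe set was low, and a second MASTL probe set gave 0.15 for the same difference (two-sided exact permutation p = 0.299), with 3.37 ± 0.16 in CON and 3.52 ± 0.29 in IM10. Over the 18 arrays, with diet means removed, these probe sets correlated with r = 0.519, and the mean of both was 0.35 higher in IM10 than in CON. MASTL was also the only member that followed the percentage of insect meal over all 18 arrays (0.545 higher per 10 percentage points, 95% interval 0.18 to 0.91, adjusted p in limma 0.80), where 5.32% of all probe sets had an unadjusted p below 0.05.

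CDKN1A encodes p21, the CDK inhibitor that p53 induces and that stops cells in G1. In CON its values were 7.22, 7.35, 7.26, 7.10, 6.62 and 6.40, in IM5 they were 7.42, 7.19, 6.79, 6.66, 6.04 and 6.79, and in IM10 they were 6.64, 6.61, 6.70, 6.44, 6.95 and 6.63. The CON and IM5 pigs were spread widely and the IM10 pigs lay close together inside the range of both. Means were 6.99 ± 0.39 in CON, 6.82 ± 0.48 in IM5 and 6.66 ± 0.17 in IM10 (SD, n = 6). The value in IM10 fell by 0.33 relative to CON, a 1.26-fold lower value (limma p = 0.043, two-sided exact permutation p = 0.0909). This call was lost in 13 of 21 alternative settings, among them 9 of the 12 that left out 1 array (CON replicate 1, 2, 3 or 4, or IM10 replicate 1, 2, 3, 4 or 6).

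**Figure D1:**
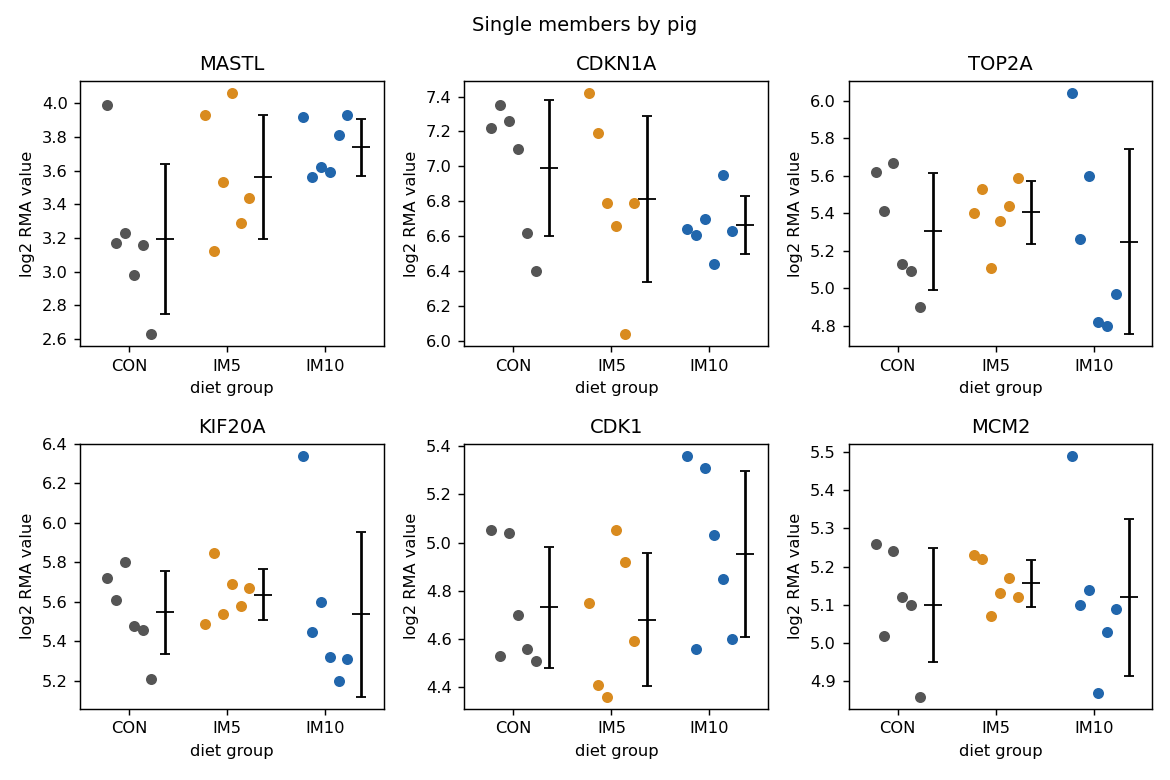
Log2 RMA value (vertical axis) of MASTL, CDKN1A, TOP2A, KIF20A, CDK1 and MCM2 in each pig, by diet group (CON, IM5, IM10); points are pigs in the order of their replicate numbers, and the bar beside them is the mean with its SD (n = 6). MASTL lies at 3.56 or above in all 6 IM10 pigs, while KIF20A, TOP2A and MCM2 reach their highest value in the same IM10 pig.

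Both comparisons with CON used the same 6 CON pigs. Between IM5 and CON, limma found 0 of 38 members meeting the criteria, as against 1.92% of all probe sets, and the unpaired test of the study's methods also found 0. Without the fold criterion 1 of 38 members had an unadjusted p below 0.05, beside 1452 of all 25388 probe sets. This member was CCNE1, a cyclin of the step from G1 into S phase, at 4.35 ± 0.20 in CON and 4.56 ± 0.17 in IM5 (difference 0.22, limma p = 0.0475, two-sided exact permutation p = 0.0693). Between IM10 and IM5, limma and that unpaired test again found 0 of 38, beside 1.59% of all probe sets. Here 1 of 38 members had an unadjusted p below 0.05, beside 1372 of all 25388 probe sets. It was CCND2, a D-type cyclin, at 6.97 ± 0.23 in IM5 and 6.73 ± 0.16 in IM10 (difference -0.24, limma p = 0.0413, two-sided exact permutation p = 0.0671). For each of the 38 members the ranges of any 2 diets overlapped, but the share over all probe sets was not computed, so nothing particular to the members is read from this.

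The intervals of these small differences limited how large a difference between diets could be. In each comparison many of them reached past the fold criterion, so a difference of that size was not excluded for those members. All 38 members had a 95% limma interval within ±1 on the log2 scale in each of the 3 comparisons, so that a 2-fold difference lay outside every interval. A bound of ±0.5 held for 32 members between IM10 and CON, 35 between IM5 and CON, and 33 between IM10 and IM5. The differences between IM10 and CON ran from -0.33 to 0.545. Their median over the members was -0.004, beside 0.003 over all probe sets, and 18 members were above 0 and 20 below. In IM5 against CON the median was 0.055, beside 0.003 over all probe sets, with 26 above 0 and 12 below. It was 0.017 without CON replicate 6 and 0.085 without CON replicate 3. In IM10 against IM5 the median was -0.0375, beside -0.002 over all probe sets, with 10 above 0. The rest were below 0, except MYBL2 and TTK, whose means were equal in both groups. This median was -0.11 without IM10 replicate 1 and 0.002 without IM10 replicate 4. The share of all probe sets above 0 is not given here, so nothing particular to the members is read from these counts. The median of IM10 against CON was -0.067 without IM10 replicate 1 and 0.043 without IM10 replicate 4. In bulk tissue, fewer cells of a type and less RNA per cell cannot be told apart.

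**Figure D2:**
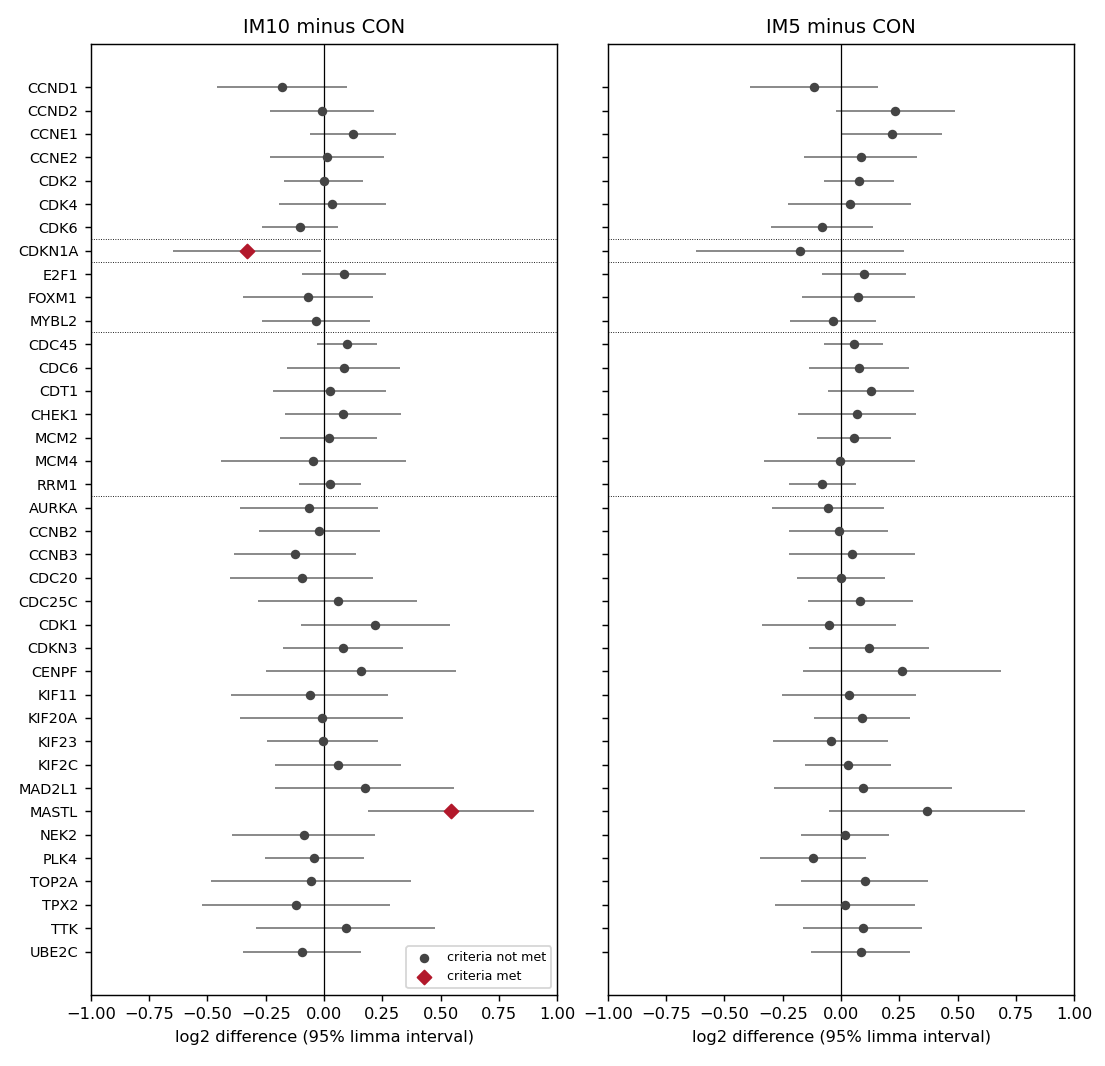
Log2 difference of the 38 members (1 row each, grouped by role from G1 to G2/M) between IM10 and CON on the left and between IM5 and CON on the right; points are differences of 6 against 6 pigs, lines are 95% limma intervals, and diamonds mark members that met the criteria. Only MASTL (0.545) and CDKN1A (-0.33) are marked, both in IM10 against CON, and most intervals cross 0.

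Among the 7 G1 genes, none met the criteria in any comparison. CCND1, the cyclin that couples growth signals to the start of the cycle, had a lowest, median and highest value of 7.81, 8.14 and 8.60 in CON, 7.92, 8.01 and 8.31 in IM5 and 7.82, 7.94 and 8.26 in IM10. The CON pigs reached both the lowest and the highest of these values. Its difference between IM10 and CON was -0.18 with an interval from -0.46 to 0.10. The kinases CDK2, CDK4 and CDK6 and the cyclin CCNE2 had differences between -0.11 and 0.035 in that comparison. CDK2, which acts with the E cyclins, had the smallest spread of the 7, with an SD within diets of 0.13.

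The 3 transcription factors were close to level. E2F1, an activator of S phase genes, was 5.42 ± 0.15 in CON, 5.52 ± 0.13 in IM5 and 5.51 ± 0.14 in IM10 (SD, n = 6). FOXM1, which drives G2/M genes, was 4.52 ± 0.24, 4.59 ± 0.18 and 4.45 ± 0.27 in the same order, and MYBL2, which works with it, was 5.80 ± 0.12, 5.77 ± 0.17 and 5.77 ± 0.26. The differences between diets were smaller than the SD between pigs for all 3 factors.

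None of the 7 S phase genes met the criteria in any comparison. CDC6 and CDT1, which load the replicative helicase onto DNA, differed by 0.08 and 0.02 between IM10 and CON. MCM2, a subunit of that helicase, had a lowest, median and highest value of 4.86, 5.11 and 5.26 in CON, 5.07, 5.15 and 5.23 in IM5 and 4.87, 5.09 and 5.49 in IM10. The IM5 pigs were the most alike, and a single IM10 pig stood at 5.49. MCM4, a further helicase subunit, varied most in this group, with 5.55, 6.21 and 6.64 in CON, 5.84, 6.11 and 6.43 in IM5 and 5.64, 6.13 and 6.54 in IM10. CDC45, which activates the loaded helicase, had the tightest values, 5.79 ± 0.07 in CON, 5.84 ± 0.05 in IM5 and 5.89 ± 0.08 in IM10 (difference between IM10 and CON 0.10, limma p = 0.13, two-sided exact permutation p = 0.0606). RRM1, the large subunit of the enzyme that makes deoxyribonucleotides, and CHEK1, the kinase of the replication checkpoint, differed by 0.025 and 0.08.

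The 20 G2/M genes varied more from pig to pig than most genes did, and their diet means lay close together. Apart from MASTL, none met the criteria. All 20 had an SD within diets above the median SD of all named genes, which was 0.16, and the median SD of the 20 was 0.27. CENPF, a kinetochore protein, had the highest SD (0.41), with a lowest, median and highest value of 5.10, 5.50 and 6.19 in CON, 5.24, 5.95 and 6.48 in IM5 and 5.24, 5.73 and 6.32 in IM10. All 3 diets thus spanned more than 1 log2 unit for this gene. TOP2A, the topoisomerase that untangles chromosomes before they separate, had 4.90, 5.27 and 5.67 in CON, 5.11, 5.42 and 5.59 in IM5 and 4.80, 5.12 and 6.04 in IM10. The IM10 pigs held both the lowest and the highest TOP2A value.

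MAD2L1 and TTK act in the spindle checkpoint, which delays separation until all chromosomes are attached. MAD2L1 ranged from 4.07 to 5.18 in CON, 4.14 to 5.03 in IM5 and 4.46 to 5.46 in IM10, with medians of 4.67, 4.87 and 4.76. TTK ranged from 4.16 to 4.74, 4.27 to 4.85 and 3.98 to 5.24 in the same order, with medians of 4.57, 4.59 and 4.49. For both genes the highest value of the study came from IM10 replicate 1. TPX2, which activates Aurora A on the spindle, ranged from 5.29 to 6.21 in CON, 5.52 to 6.13 in IM5 and 5.08 to 6.26 in IM10, with medians of 5.83, 5.80 and 5.78, and here too that pig was highest.

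CDK1, the kinase that starts mitosis, had a lowest, median and highest value of 4.51, 4.63 and 5.05 in CON, 4.36, 4.67 and 5.05 in IM5 and 4.56, 4.94 and 5.36 in IM10. Its difference between IM10 and CON was 0.22 (limma p = 0.164, two-sided exact permutation p = 0.234). A second CDK1 probe set gave -0.017 for the same difference, and the probe sets correlated with r = 0.585 over the 18 arrays with diet means removed. The remaining G2/M genes were the cyclins CCNB2 and CCNB3, the kinases AURKA, NEK2 and PLK4, the phosphatases CDC25C and CDKN3, the kinesins KIF11, KIF20A, KIF23 and KIF2C, and CDC20 and UBE2C, which act with the ubiquitin ligase that ends mitosis. Their differences between IM10 and CON lay between -0.12 and 0.08.

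The values of the G2/M genes went up and down together from pig to pig. After the diet mean was removed from each gene, the median correlation over the 190 pairs of the 20 genes was 0.517 on the 18 arrays, 98.4% of pairs were above 0 and 54.7% above 0.5. Over all 75724971 pairs of named genes the median was 0.001, with 50.2% above 0 and 3.25% above 0.5. These correlations describe 18 arrays that share tissue, platform and normalization, and no test was made of them. The 7 S phase genes had a median of 0.571 over 21 pairs, and their pairs with G2/M genes a median of 0.433. Single diets gave different values, with G2/M medians of 0.263 within IM5 and 0.727 within IM10, and S phase medians of -0.013 within IM5 and 0.767 within IM10.

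TOP2A was the most typical member, with a mean correlation of 0.681 with the other G2/M genes, and KIF11, the motor that pushes the spindle poles apart, followed with 0.644. The closest pair of all was TOP2A and TTK (r = 0.923), and KIF20A, a kinesin of cell separation, was next to TOP2A with r = 0.913. The least typical were CCNB3, a cyclin best known from the germ line, with 0.187, and MASTL with 0.227. MASTL, the member that was higher in IM10, thus shared less of the common pattern than the other G2/M genes except CCNB3. CCNB3 and MASTL also had the lowest mean signal of the G2/M genes (3.57 and 3.50). The next dimmest, PLK4 and KIF2C (3.74 and 3.81), had mean correlations of 0.389 and 0.484. Among G2/M genes with a mean of at least 5, the median correlation was 0.647, beside 0.517 without that filter. Whether weak signal lowered the correlations of CCNB3 and MASTL was not tested.

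Some of the closest pairs reached beyond the G2/M genes. CDC45 and MCM2, both parts of the active helicase, correlated with r = 0.885, FOXM1 and KIF2C, a kinesin that shortens microtubules, with r = 0.861, and MYBL2 and CDC6 with r = 0.833. MCM2 followed the G2/M genes more closely than the other S phase members did, with a mean correlation of 0.626. CDT1 (0.121) and CHEK1 (0.141) followed them least. E2F1 was apart from the other factors, with a mean correlation of 0.255 beside 0.481 for FOXM1 and 0.525 for MYBL2.

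The G1 genes had little part in this pattern. Their median correlation with each other was 0.213, and with the G2/M genes it was 0.123. CCND1, CCND2 and CCNE1 formed a small group of their own (r = 0.718 for CCND1 with CCND2 and 0.71 for CCND2 with CCNE1), and CHEK1 went with CCND1 (r = 0.751). CDK4 and CDK6 had mean correlations of -0.03 and -0.13 with the G2/M genes, against 0.371 for CCNE2 and 0.317 for CDK2. CDKN1A, the inhibitor, had a median correlation of 0.184 with them, and no pair above 0.5.

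**Figure D3:**
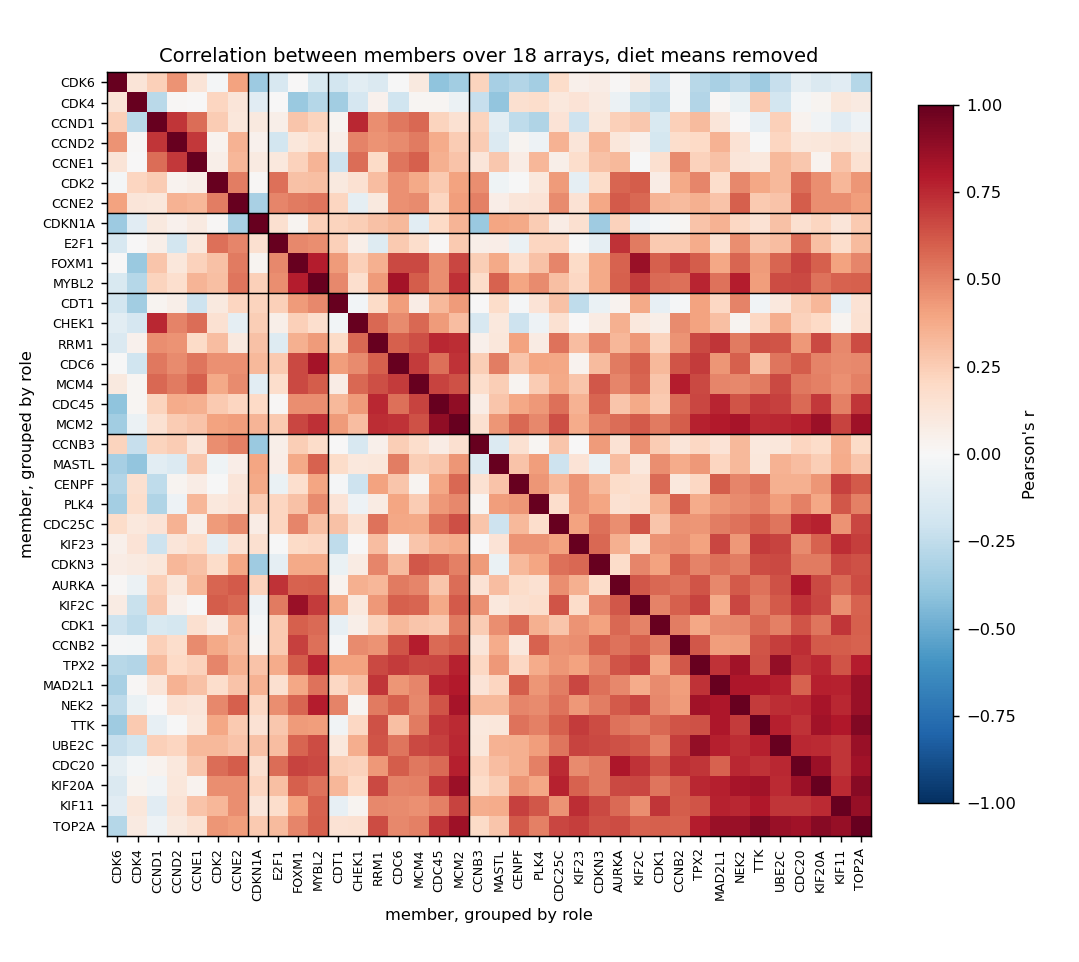
Pearson's r between each pair of the 38 members over 18 arrays with diet means removed (colour scale from -1 to 1); genes are grouped by role in the order G1, inhibitor, transcription factors, S phase and G2/M, and within a role by their mean correlation with the G2/M genes. The dark block at the lower right runs from TPX2 to TOP2A, while CDK4, CDK6 and CCNB3 are mostly pale or blue.

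Of 8 gene pairs listed for a test across pigs, 3 had a probe set for both genes. TOP2A and CDK1 correlated with r = 0.594 over the 18 arrays (permutation p = 0.00897, adjusted over the 3 pairs and both coefficients 0.0538) and rho = 0.49 (permutation p = 0.0399, adjusted 0.0598). Without the 2 arrays farthest out in TOP2A r was 0.502, and within diets it was 0.827 in CON, 0.153 in IM5 and 0.656 in IM10. CDK1 and MCM2 had r = 0.517 (permutation p = 0.0246, adjusted 0.0598) and rho = 0.493 (permutation p = 0.0394, adjusted 0.0598), with r = 0.292 without 2 arrays and 0.874, 0.145 and 0.474 within CON, IM5 and IM10. CCND1 and CDKN1A had r = 0.096 (permutation p = 0.707, adjusted 0.849) and rho = 0.032 (permutation p = 0.898, adjusted 0.898), with r = 0.239 without 2 arrays and 0.096, 0.048 and 0.313 within CON, IM5 and IM10. No pair passed the adjustment. The permutations shuffled values across diets after diet means had been removed, which can make these p-values somewhat too small.

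A mean over the 20 G2/M genes, each taken as its deviation from its own mean, shows which pigs were high. Its lowest, median and highest value was -0.28, -0.05 and 0.21 in CON, -0.17, 0.05 and 0.15 in IM5 and -0.25, -0.09 and 0.49 in IM10. IM10 replicate 1 stood highest of all 18 pigs and had the highest value of its group for 18 of the 20 genes. CON replicate 6 was the lowest of all and had the lowest value of its group for 12 of the 20. The diet means of this average were -0.03 ± 0.19, 0.03 ± 0.11 and 0.00 ± 0.28 in CON, IM5 and IM10 (SD, n = 6). The corresponding S phase average was -0.03 ± 0.16, 0.01 ± 0.05 and 0.01 ± 0.16.

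**Figure D4:**
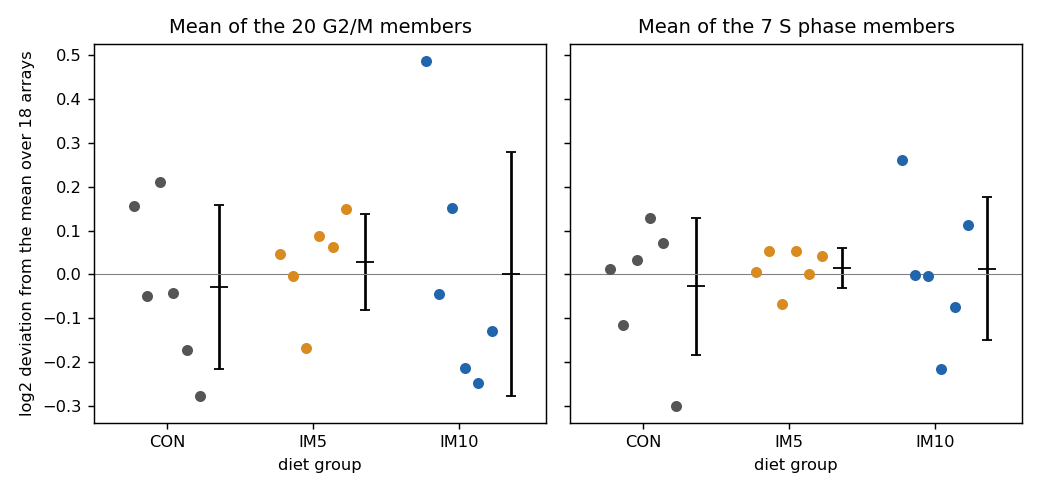
Mean deviation on the log2 scale of the 20 G2/M members (left) and the 7 S phase members (right) from their mean over 18 arrays, for each pig, by diet group; points are pigs in the order of their replicate numbers, and the bar beside them is the mean with its SD (n = 6). Diet means differ by less than the spread of the pigs, and IM10 replicate 1 is highest in both panels, at 0.49 and 0.26.

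The spread between pigs was then set side by side for the diets. The SD over the 6 IM10 pigs was larger than that over the IM5 pigs for 15 of the 20 G2/M genes and larger than that over the CON pigs for 16 of the 20, whereas over all named genes the shares were 41.1% and 48.4%. Without IM10 replicate 1 these counts were 12 and 11 of 20, beside 39.6% and 46.0% of all named genes, so they depended on that pig. The median SD of the 20 genes in IM10 was then 0.224, below the 0.246 of CON and above the 0.199 of IM5. As these genes went up and down together, they are not 20 separate observations of the spread. The CON pigs had the larger SD than the IM5 pigs for 15 of the 20 G2/M genes, beside 42.8% of all named genes. A test of these spreads was not made.

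The pattern reached genes outside the list. A further list of G2/M genes had no gene in common with the members. Of its 59 symbols, in which a few genes stood under an old and a new name, 42 were the single name of a probe set. The mean of these 42 correlated with the mean of the 20 members with r = 0.954 and rho = 0.94 over the 18 arrays with diet means removed. Without IM10 replicate 1, r was 0.921, and without the arrays of the highest and lowest G2/M mean it was 0.897. The S phase members followed less firmly, with r = 0.673, which fell to 0.504 without that pig and to 0.284 without both arrays. The factors E2F1, FOXM1 and MYBL2 had r = 0.686, with 0.515 and 0.443 in the same settings. Of the array-level measures, the array median had r = 0.003 with the G2/M mean, and the mean correlation of an array with the other arrays had r = -0.373 and rho = -0.236. The part of the latter in the pattern was not tested.

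**Figure D5:**
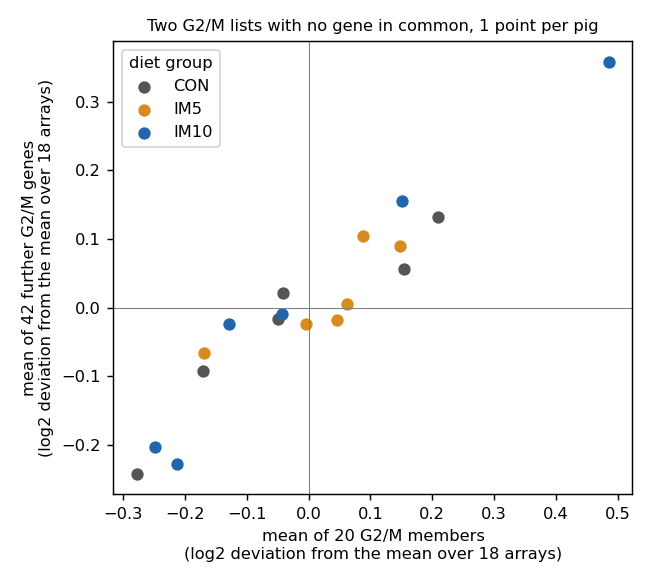
Mean of 42 further G2/M genes (vertical axis) against the mean of the 20 G2/M members (horizontal axis), both as log2 deviations from the mean over 18 arrays, 1 point per pig, coloured by diet group. The pigs lie close to 1 line, from CON replicate 6 at the lower left (-0.28 and -0.24) to IM10 replicate 1 at the upper right (0.49 and 0.36).

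Among the 12269 named genes that were no members, the 10 most like the G2/M mean were ANLN (r = 0.959), HMMR (0.93), KNTC1 (0.905), RACGAP1 (0.898), SHCBP1 (0.888), KIF4A (0.863), ATAD2 (0.859), MTFR2 (0.844), PLP2 (0.832) and ASF1B (0.832), over 18 arrays with diet means removed. ANLN and RACGAP1 act in the ring that pinches dividing cells apart, KNTC1 at the kinetochore, KIF4A on chromosomes, and ASF1B carries histones to new DNA. Of these 10, 6 were in the further G2/M list. Of the 50 most alike, 18 were in the further cell cycle lists, which held 0.668% of the non-member genes. The median r over all non-members was -0.006, and 3.59% of them were above 0.5.

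Markers of other cells were set beside this pattern. The mean of 8 of 12 hepatocyte markers, those that were the single name of a probe set, had r = 0.186 with the G2/M mean. Liver endothelium, with 8 of 10 markers, had r = -0.635 and rho = -0.573 (r = -0.422 without IM10 replicate 1), and each of the 8 was negatively correlated. Its mean deviation ran from -0.15 to 0.10 in CON, -0.06 to 0.13 in IM5 and -0.22 to 0.12 in IM10. The erythroid list, with 8 of 12 markers, had r = -0.521 and rho = -0.569 (r = -0.498 without IM10 replicate 1), with 1 of 8 positively correlated. It ran from -0.21 to 0.00, -0.08 to 0.22 and -0.18 to 0.16. Within CON, IM5 and IM10, r was -0.25, -0.53 and -0.88 for endothelium and -0.14, -0.61 and -0.73 for the erythroid list. The median r of markers with each other was 0.350 for endothelium, 0.089 for the erythroid list and -0.018 for hepatocytes. A list mean of markers that hardly go together need not follow the number of cells. Macrophages and monocytes (9 of 11 markers) had r = 0.334, which was -0.04 without IM10 replicate 1, and T and NK cells (12 of 13) had r = -0.281. Cholangiocytes (5 of 7 markers) had r = -0.445 and rho = -0.34 (r = -0.365 without IM10 replicate 1). RMA values have no true zero, so a marker that is not expressed cannot be told from a dim one. The part of these cells in the G2/M pattern was not tested.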

How the data were processed

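The authors hybridised liver RNA of 6 pigs per diet to Affymetrix Porcine Gene 1.0 ST arrays and deposited log2 values. The submitters' processing notes name Expression Console and RMA, versions not given in the sources used here. The deposited table holds 25388 probe sets with 2 decimals, of which 13257 carry a single gene symbol (12307 genes) and 427 several. A gene was represented by its probe set with the highest mean over 18 arrays, and 2 members (CDK1, MASTL) had a second one. Groups of 6 pigs were compared 2 at a time with limma 3.58.1 in R 4.3.3 over all probe sets, with Benjamini-Hochberg adjustment, and the dose trend with the insect meal percentage over 18 arrays. Exact permutation tests used all 924 arrangements (smallest p 0.00216), and correlation p-values 100000 permutations. Fits were tested on simulated data. Alternatives covered the test, normalization, a filter on dim probe sets, the fold criterion, the variance prior, the probe set per gene, a replicate block and leaving out each array.

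Members described by value were those that met the criteria or the trend, the 8 with the largest SD within diets and set representatives (TOP2A, CDK1, MCM2, CCND1, CDKN1A). Values of CCNE1, CCND2, E2F1, FOXM1, MYBL2 and CDC45 were added outside this rule, after they were seen, and KIF20A for its outlying pig. The members and lists were chosen with earlier results of these data known. Gene numbers of 35 of the 38 members were found in the gene table with the same symbol. No sequences are shown.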

Additional observations from a re-analysis of the deposited data

Results flagged for a closer look

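In 120 groups of 6 values (38 members and the phase averages by diet), 2 pigs stood farther from the others of their group than Dixon's 95% limit for the gap, taken relative to the group's whole range. Chance flags about 1 in 20 such groups. CDK4, a kinase of G1, was 7 on the log2 scale in IM5 replicate 4, while the other 5 IM5 pigs lay between 7.42 and 7.67. KIF20A, a kinesin of cell separation, was 6.34 in IM10 replicate 1, while the next IM10 pig was at 5.60 and the lowest at 5.20. That pig also had the highest G2/M average of the study (0.49).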

How the results depend on the processing

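MASTL met the criteria between IM10 and CON in all 20 alternatives that tested it, with 0.43 to 0.70 when 1 array was left out, and a filter on dim probe sets removed it. CDKN1A did so in 8 of 21 (-0.45 to -0.26 without 1 array). The count of members between IM10 and CON was 1 in place of 2 with the t-test of the study's methods, quantile normalization, a mean of at least 5, a replicate block or all 18 arrays in 1 fit, and 1 to 2 without 1 array. Between IM5 and CON it was 1 in place of 0 with no fold criterion (CCNE1) or a replicate block (MASTL), and 0 to 2 without 1 array (CON replicate 1 gave MASTL, CON replicate 4 CCND2 and CCNE1, IM5 replicate 2 CCNE1 and MASTL, IM5 replicate 4 CCND2). Between IM10 and IM5 it was 1 with no fold criterion (CCND2) and 0 to 3 without 1 array, where the 3 came without IM5 replicate 4 (CCND2, CDK1, MASTL). Single calls came without IM5 replicate 1 or IM10 replicate 5 (CCND2), IM5 replicate 5 (CDKN1A), IM10 replicate 1 (TOP2A, -0.32) and IM10 replicate 2 or 6 (CDK1). The trend gave 2 members by ordinary least squares (CDC45 added), 0 with a mean of at least 5, and 1 to 3 without 1 array (CDKN1A was added without CON replicate 5 or 6 or IM5 replicate 5, and CCND1 without CON replicate 6). Over all probe sets the t-test called 368, 320 and 276 in the 3 comparisons, against 526, 488 and 404 by limma. For IM10 against CON the paper reported fewer liver transcripts at these criteria, so its count was not reproduced, and the reason was not examined. A mean of at least 5 left 13128 probe sets and calls of 229, 219 and 183, and without a fold criterion 1541, 1452 and 1372 were called.

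The G2/M median correlation of 0.517 was 0.263 in IM5 alone, 0.727 in IM10 alone, 0.352 without the arrays of the highest and lowest G2/M mean (chosen after seeing the data, as was leaving out IM10 replicate 1 alone for list means and spreads), and 0.394 to 0.572 without 1 array. The S phase median of 0.571 was 0.392 by Spearman, 0.775 in CON, 0.767 in IM10, 0.337 without both arrays, 0.491 to 0.614 without 1 array, and -0.013 in IM5, where the sign turned. Pairs across both phases (0.433) gave 0.170 in IM5, 0.605 in IM10, 0.176 without both arrays and 0.297 to 0.488 without 1 array. The causes were not tested, though a single diet has 6 arrays.

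The labels do not say whether equal replicate numbers pair pigs of different diets. Deviations of the 18 same-numbered pairs correlated from -0.14 to 0.20, 4 of them above 0.1, beside -0.15 to 0.20 for other pairs. These ranges cannot exclude a shared pen or litter, which were not known here. With the replicate block, limma called 609, 559 and 450 probe sets, and 1, 1 and 0 members, in the 3 comparisons, and 1 member by trend.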

Other observations

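In further lists of the cell cycle, the genes that met the criteria between IM10 and CON were 1 of 42 further G2/M genes, 1 of 18 of S phase and replication, 1 of 9 E2F and MYC factors and 0 of 13 inhibitors and arrest genes, where 2.07% of all probe sets did. Between IM5 and CON they were 1 of 18 of S phase and replication and 1 of 13 inhibitors and arrest genes, beside 1.92% of all probe sets. With single genes per list, nothing particular to a list is read from these counts. KIF20B, a kinesin of cell separation, was 4.69 ± 0.15 in CON, 4.89 ± 0.18 in IM5 and 5.00 ± 0.15 in IM10 (SD, n = 6; difference between IM10 and CON 0.31, two-sided exact permutation p = 0.00866, adjusted p in limma 0.639). POLE2, a subunit of DNA polymerase epsilon, was 0.27 higher in IM10 than in CON (two-sided exact permutation p = 0.0519), and so was MYC, a factor of growth and proliferation (0.27, two-sided exact permutation p = 0.0606). Between IM5 and CON, CDKN2C, an inhibitor of CDK4 and CDK6, was 0.30 higher in IM5 (two-sided exact permutation p = 0.0108), and TIPIN, which protects stalled replication forks, was 0.28 lower (log2 difference -0.28, two-sided exact permutation p = 0.0519). Adjusted p in limma was 0.796 for POLE2 and MYC and 0.863 for CDKN2C and TIPIN.

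Markers of cell types were called as follows, with p adjusted over all probe sets in limma. Between IM10 and CON (2.07% of all probe sets) these were 1 of 8 erythroid markers (TFRC, 0.53 higher, adjusted p = 0.667), 1 of 12 T and NK cell markers (CD5, log2 difference -0.32, adjusted p = 0.639) and 1 of 8 stellate cell and smooth muscle markers (TAGLN, 0.43 higher, adjusted p = 0.699). Between IM5 and CON (1.92% of all probe sets) they were 2 of 8 erythroid markers (GYPC, 0.30 higher, and KLF1, 0.27 higher), KLRK1 of T and NK cells (log2 difference -0.64), MSR1 of macrophages (0.28 higher), TAGLN (0.59 higher) and SOX9 of cholangiocytes (0.27 higher), each with an adjusted p of 0.863. Between IM10 and IM5 (1.59% of all probe sets) KLRK1 was 0.545 higher in IM10 (adjusted p = 0.881). TFRC stood at 9.07 ± 0.38 in CON, beside 3.73 ± 0.12 for KLF1, and whether its signal came from erythroid cells was not tested. In the paper's qPCR of 10 pigs per group, TAGLN differed significantly between IM10 and CON and TFRC did not.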
